A study of Mus musculus with 4 samples.

Results

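Mast cells, basophils and eosinophils are granulocytes of allergy and of defence against parasites. Mast cells and basophils bind IgE through the high-affinity receptor Fc epsilon RI and release histamine and proteases from their granules, while eosinophils depend on IL-5 and store cationic proteins and a peroxidase. All of them arise from myeloid progenitors, and SCF and IL-3, both present in the culture medium used here, support their growth.

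The genes described here are 10 mouse genes of these lineages, chosen by name and found by symbol among the 43629 gene identifiers of each count file. They are the transcription factor Gata2, the receptor chains Il5ra, Fcer1a and Ms4a2, the enzyme Hdc, the proteases Cpa3 and Mcpt8, and the eosinophil granule genes Prg2, Prg3 and Epx. No measured value was a criterion of the choice, but earlier results of these data were known when it was made. All 10 passed the low-count filter that left 16500 genes for testing, but Il5ra had fewer than 10 counts in both deleted libraries. It passed through the controls, the group where it was higher, so its difference is given as a description only.

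The RNA came from CD117+ hematopoietic stem and progenitor cells (HSPCs) of C57Bl/6 mice, cultured in Stemspan SFEMII medium. The medium held SCF at 50 ng/mL and LDL at a dilution of 1:200, as well as IL-3 at 10 ng/mL and IL-6 at 20 ng/mL according to the labels. For IL-6 the methods of the study state 10 ng/mL. Control cells (Chaf1b (fl/fl), 2 libraries) were spinfected with the empty retroviral vector MIGR1, and Chaf1b-deleted cells (labelled Chaf1b (-/-), 2 libraries) with MIGR1-Cre. Cells of both groups started from the same floxed genotype and were sorted for the eGFP of the vector, and RNA was taken at 48 h. The study's methods give an age of 8 to 12 weeks for its mice. Only the deleted group received Cre, so expression of Cre and loss of Chaf1b cannot be told apart. The labels do not say whether libraries came from separate animals or cultures, so the p-values measure only the spread between these samples.

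Between 18468637 and 25409926 reads were counted on genes per library. Chaf1b, which encodes a subunit of the histone chaperone CAF-1, had 80.3 and 57.9 CPM (counts of a gene per 1000000 counts on all genes) in the controls and 16.1 and 17.9 in the deleted libraries. Deleted replicate 1 stood apart from the others. It had 336 CPM of Xist and 3 counts over 4 Y-linked genes, against at most 1.30 CPM and at least 5805 counts elsewhere. By these genes it read as female and the other libraries as male, so the deleted libraries came from different animals. This reading does not come from the labels, and the part of sex in the results was not tested. The 10 listed interferon-stimulated genes of deleted replicate 1 lay at a median of 3.99 above the controls on the log2 scale, against 0.26 for deleted replicate 2. Control replicate 1 also stood apart, with a count on 39.7% of 1036 olfactory receptor genes, against 4.05% to 11.8% in the other libraries. Values without deleted replicate 1 are given for each of the 10 genes, and values without control replicate 1 for part of them. For the further lists neither is given.

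Reads were counted on all 10 genes in every library, and the levels spanned a wide range. For Il5ra, near the limit of detection, the counts do not settle whether its transcript was present. Per kilobase of merged exon, so that genes can be compared, Prg2 had the highest mean level in control HSPCs with 332 CPM per kb, followed by Mcpt8 (287), Cpa3 (158), Epx (85.0), Gata2 (48.2), Ms4a2 (45.8), Hdc (26.7), Prg3 (23.6), Fcer1a (7.53) and Il5ra (0.196). The controls of neighbours in this order overlapped for Prg2 and Mcpt8, for Cpa3 and Epx, for Gata2 and Ms4a2, and for Hdc and Prg3, and did not overlap for the other neighbours. In Chaf1b-deleted HSPCs the order of means per kb was Mcpt8 (296), Cpa3 (216), Prg2 (144), Gata2 (41.3), Hdc (38.6), Epx (24.5), Ms4a2 (22.9), Fcer1a (10.6), Prg3 (6.99) and Il5ra (0.104). There the neighbours overlapped for Mcpt8 and Cpa3, for Cpa3 and Prg2, for Gata2 and Hdc, and for Epx and Ms4a2. The order of Prg2, Mcpt8 and Cpa3 differed between libraries of the same group. In control replicate 1 Mcpt8 (313) and Cpa3 (226) lay above Prg2 (215), whereas in control replicate 2 Prg2 (449) lay above Mcpt8 (262) and Cpa3 (89.1). These exon lengths come from the GENCODE vM1 annotation, which may differ from the one the reads were counted on.

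**Figure D1:**
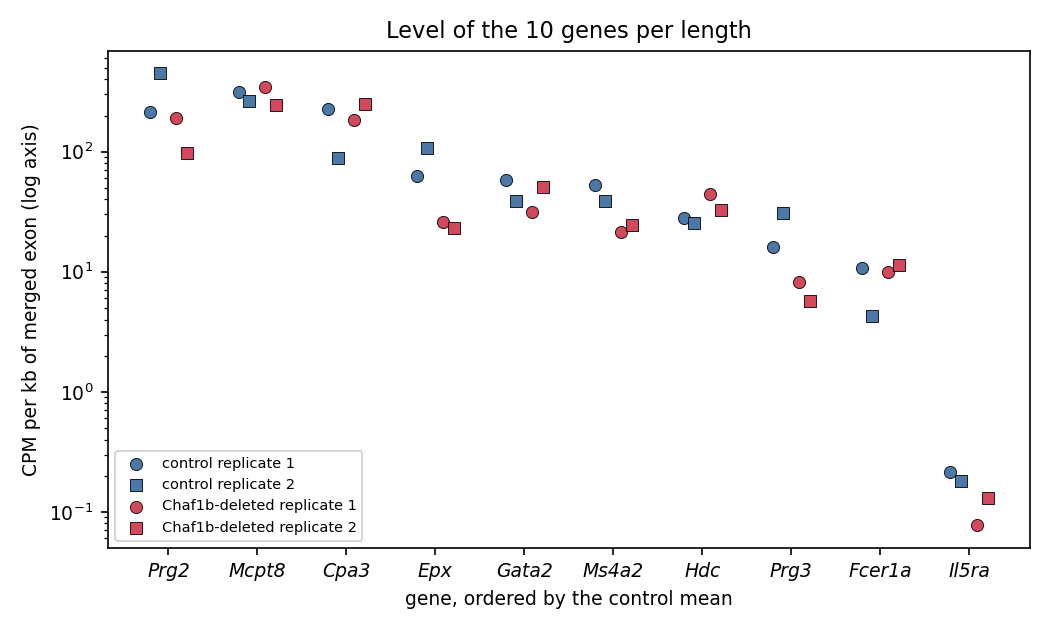
Level of the 10 genes in CPM per kb of merged exon (log axis), with 1 point per library and genes ordered by the control mean. The control means run from 332 for Prg2 to 0.196 for Il5ra, and the red points of Prg2, Epx, Ms4a2, Prg3 and Il5ra lie below the blue ones.

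Transcripts of the eosinophil granule genes had lower levels in both Chaf1b-deleted libraries than in the controls, although no gene passed the adjusted test. Epx encodes eosinophil peroxidase, which makes oxidants from halides. Prg2 encodes major basic protein, the main component of the granule core, and Prg3 a homolog of it. Summed over the 3 genes, control replicates 1 and 2 had 367 and 701 CPM, and deleted replicates 1 and 2 had 238 and 151, so that the deleted mean was 36.5% of the control mean. For each of the 3, both deleted libraries lay below both controls, as they did for 22.9% of all genes tested.

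Epx (chromosome 11 of mm9, 87677502 to 87689038, minus strand) had 171 and 294 CPM in control replicates 1 and 2 and 70.8 and 63.2 in deleted replicates 1 and 2. The 2 deleted libraries were close to each other, and the higher of them was 41.4% of the lower control. The deleted over control log2 fold change was -1.76 with a standard error of 0.30 (edgeR quasi-likelihood test, unadjusted p = 0.000401 and Benjamini-Hochberg adjusted p = 0.0696), the smallest p of the 10 genes, and the adjusted p missed the threshold of 0.05. Leaving out 1 library at a time gave values between -2.10 and -1.33, and -1.96 without deleted replicate 1. The -2.10 came without control replicate 1, when control replicate 2, the highest library for Epx, was the only control. Whether Epx passed the threshold changed with the library left out, but such fits have a lone library in 1 group.

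Prg3 (chromosome 2, 84828353 to 84834043, plus strand) had 15.6 and 30.1 CPM in control replicates 1 and 2 and 8.03 and 5.52 in deleted replicates 1 and 2, all on the plain CPM scale. The groups did not overlap, although the controls differed from each other by 1.93-fold. On the log2 scale the change was -1.70 ± 0.40 (SE, adjusted p = 0.149). It was -2.13 without deleted replicate 1, -1.37 without deleted replicate 2 and -1.17 without control replicate 2. Without control replicate 1, which left the higher control alone, it was -2.10. Whether Prg3 passed the threshold changed with the library left out.

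Prg2 (chromosome 2, 84820618 to 84823789, plus strand) lies 4563 bases from Prg3, and no stretch of 31 exonic bases was shared between any pair of the 10 genes. It had 179.9 and 376 CPM in control replicates 1 and 2, and 159 and 82.4 in deleted replicates 1 and 2. The groups were separated by a narrow gap, since deleted replicate 1 reached 88.4% of control replicate 1. Its log2 fold change of -1.14 ± 0.44 (SE, adjusted p = 0.349) ranged from -1.83 without deleted replicate 1 to -0.53 without control replicate 2. Without control replicate 1, which left the higher control alone, it was -1.58. Whether Prg2 passed the threshold changed with the library left out.

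**Figure D2:**
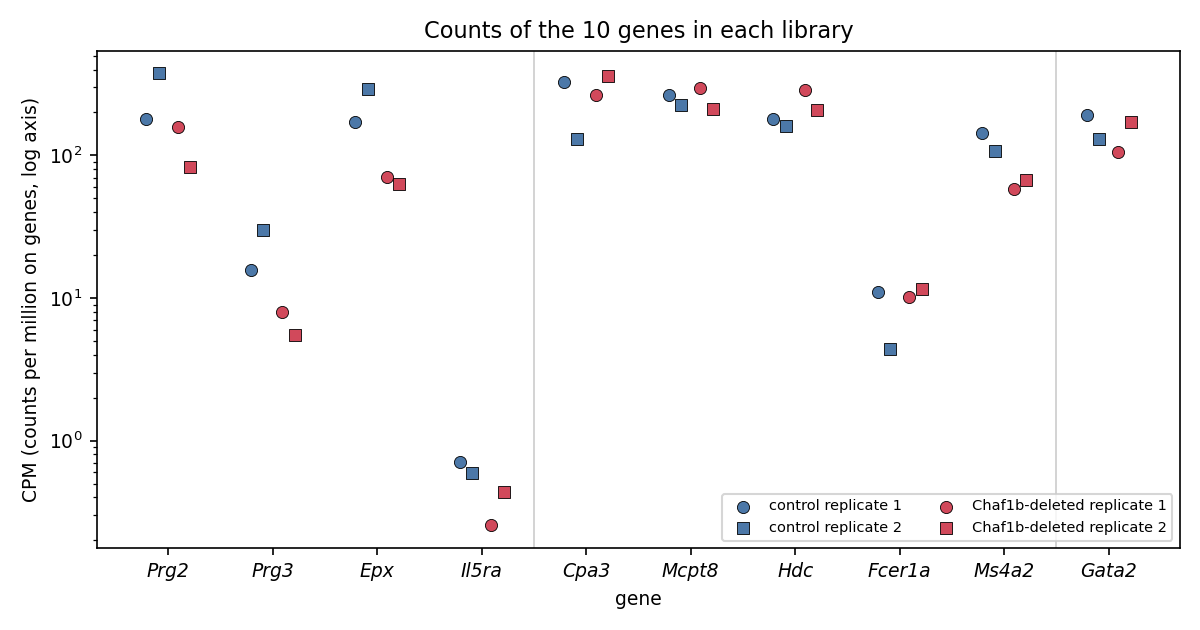
CPM of each gene in each library (log axis), with eosinophil genes on the left, mast cell and basophil genes in the middle and Gata2 on the right. Control replicate 2 is the highest library for Prg2 (376 CPM), Prg3 (30.1) and Epx (294) and the lowest for Cpa3 (129) and Fcer1a (4.41).

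Il5ra encodes the chain of the IL-5 receptor that binds IL-5 and marks cells committed to the eosinophil lineage. It was close to the limit of detection in all libraries, with 16 and 15 counts in control replicates 1 and 2 and 6 and 8 in deleted replicates 1 and 2. In CPM these were 0.704 (95% Wilson interval 0.433 to 1.14), 0.590 (0.358 to 0.974), 0.255 (0.117 to 0.556) and 0.433 (0.220 to 0.855). The intervals cover counting error only, and those of the 2 groups overlapped. Its change of -0.90 ± 0.66 on the log2 scale (SE, adjusted p = 0.646) did not pass the test and was -0.65 without deleted replicate 1, and 11.1% of the 31-base stretches of its exons occur elsewhere in the genome.

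None of the 5 mast cell and basophil genes passed the adjusted test. Summed over Cpa3, Mcpt8, Hdc, Fcer1a and Ms4a2, control replicates 1 and 2 had 931 and 627 CPM, and deleted replicates 1 and 2 had 914 and 860, both inside the range of the controls. The deleted libraries overlapped the controls for Cpa3, Fcer1a and Mcpt8, lay below both for Ms4a2 and above both for Hdc. Over all genes tested, 22.9% lay below both controls and 21.4% above, so these positions are descriptions only.

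Ms4a2 encodes the beta chain of Fc epsilon RI, which amplifies signals from the IgE receptor. The gene (chromosome 19, 11690013 to 11698209, minus strand) had 144 and 108 CPM in control replicates 1 and 2 and 58.5 and 67.5 in deleted replicates 1 and 2. The mean was 126 ± 25.8 CPM in the controls and 63.0 ± 6.31 after deletion (SD, n = 2), and the higher deleted library reached 62.5% of the lower control. This was a log2 fold change of -0.98 ± 0.23 (SE, adjusted p = 0.136). Dropping single libraries moved it between -1.19 and -0.75, the narrowest such range among the 10 genes, and it was -0.99 without deleted replicate 1.

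Fcer1a, on chromosome 1 from 175151402 to 175157360 on the minus strand, encodes the alpha chain of the same receptor, the part that binds IgE. It had 11.0 and 4.41 CPM in control replicates 1 and 2 and 10.2 and 11.6 in deleted replicates 1 and 2, and did not follow Ms4a2. Control replicate 2 alone was low, and the other 3 libraries lay within 10.2 to 11.6 CPM. Fcer1a had a log2 fold change of 0.51 ± 0.45 (SE, adjusted p = 0.715), which was 0.51 without deleted replicate 1, -0.014 without control replicate 2 and 1.33 without control replicate 1. The ratio of Fcer1a to Ms4a2 within a library was 0.0764 and 0.0408 in the controls and 0.173 in both deleted libraries. The difference between the changes of the 2 chains was not tested.

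Cpa3 encodes carboxypeptidase A3, a granule protease of mast cells and basophils. The gene (chromosome 3, 20115516 to 20142080, minus strand) had 328 and 129 CPM in control replicates 1 and 2 and 264 and 363 in deleted replicates 1 and 2. It shared the pattern of Fcer1a, with control replicate 2 low and the other libraries between 264 and 363 CPM. The ratio of Cpa3 to Fcer1a was 29.7 and 29.3 in the controls and 26.0 and 31.1 in the deleted libraries, so the 2 genes kept nearly the same proportion in all 4. Its log2 fold change of 0.46 ± 0.40 (SE, adjusted p = 0.715) was 0.58 without deleted replicate 1, but became -0.071 without control replicate 2 and 1.29 without control replicate 1, so its direction rested on which control was used.

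Mcpt8 encodes a serine protease of basophil granules and is used as a basophil marker. It lies on chromosome 14 from 56701003 to 56704053 on the minus strand. It had 267 and 224 CPM in control replicates 1 and 2 and 296 and 211 in deleted replicates 1 and 2, so that the deleted libraries enclosed the controls. A log2 fold change of 0.09 ± 0.28 (SE, adjusted p = 0.936) was within the spread between replicates, and its sign changed without deleted replicate 1 (-0.30) and without control replicate 2 (-0.049).

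Hdc encodes histidine decarboxylase, the enzyme that makes histamine. It was the only one of the 10 genes for which both deleted libraries lay above both controls, against 21.4% of all genes tested. The gene (chromosome 2, 126419403 to 126445035, minus strand) had 180.0 and 161 CPM in control replicates 1 and 2 and 285 and 207 in deleted replicates 1 and 2. The difference was 0.57 ± 0.26 on the log2 scale (SE, unadjusted p = 0.0640, adjusted p = 0.451). It was 0.20 without deleted replicate 1, the library with high interferon-stimulated genes, and 0.88 without deleted replicate 2, and the part of those genes in the result was not tested. The ratio of Mcpt8 to Hdc was 1.49 and 1.39 in the controls and 1.04 and 1.02 in the deleted libraries.

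Gata2 encodes a zinc finger transcription factor that is needed by stem cells and by the mast cell and basophil lineages. The gene (chromosome 6, 88143885 to 88157024, plus strand) had 193 and 130 CPM in control replicates 1 and 2 and 106 and 171 in deleted replicates 1 and 2. The groups overlapped, and the change of -0.22 ± 0.27 on the log2 scale (SE, adjusted p = 0.808) was within the spread. Without deleted replicate 1 it was -0.0021 and without control replicate 1 it was 0.095.

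**Figure D3:**
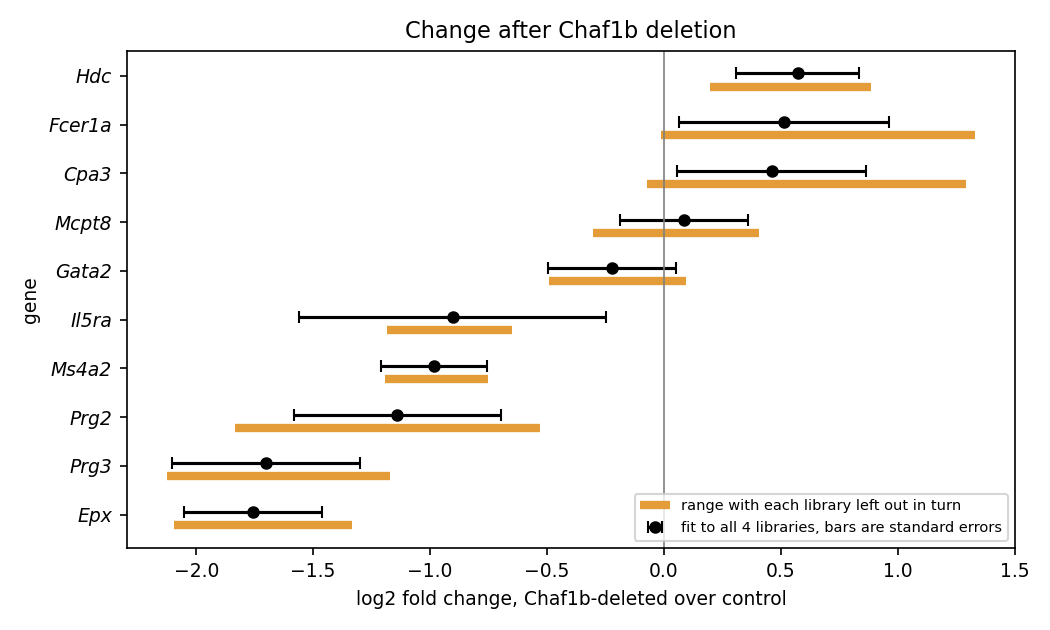
Log2 fold change of the 10 genes, Chaf1b-deleted over control, with standard errors (black) and the range over the fits that each drop 1 library (orange). The ranges of Epx, Prg3, Prg2, Ms4a2 and Il5ra stay below 0, that of Hdc stays above 0, and those of the other 4 genes cross 0.

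Across the list, 0 of the 10 genes were called higher and 0 lower by edgeR's quasi-likelihood test at a change of at least 1.5-fold and an adjusted p under 0.05, where 0.37% of the 16500 genes tested were called higher and 0.00606% lower. By the unadjusted p alone (under 0.05), 4 of the 10 were lower (Epx, Prg3, Ms4a2 and Prg2) and 0 higher, against 3.1% and 9.15% of all genes tested. Both deleted libraries lay below both controls for 5 of the 10, Il5ra among them, and above both for 1, against 22.9% and 21.4% of all genes tested. The median log2 fold change of the 10 was -0.56, against -0.03 over all genes tested, and 4 of the 10 were positive. That median includes Il5ra, which passed the filter through the controls. It was -0.21 when Il5ra was dropped by a minimum of 10 counts in every library, and -0.33 without control replicate 1, so it is given as a description only. Other tests on the same 4 libraries called some of these genes lower. Epx, Prg3 and Ms4a2 were called by edgeR's exact test (adjusted p = 3.83e-05, 0.0135 and 0.0201), which called 0.212% of genes lower, and by DESeq2 (adjusted p = 6.96e-06, 0.00310 and 0.00960), which called 0.228% of the 14900 genes it adjusted lower. Without a low-count filter the quasi-likelihood test also called Prg2, and then 0.252% of genes were lower. The call on these genes thus depended on the test, the filter and, for Epx, Prg3 and Prg2, the libraries used, while the directions of Epx, Prg3, Prg2 and Ms4a2 were the same in all alternatives that were run. In bulk RNA, fewer cells of a lineage and less RNA per cell cannot be told apart.

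The spread between libraries of the same group was itself large for these genes. Control replicate 2 had 2.09 times the Prg2, 1.93 times the Prg3 and 1.72 times the Epx of control replicate 1, while control replicate 1 had 2.54 times the Cpa3 and 2.50 times the Fcer1a of control replicate 2. The 2 controls thus differed in opposite directions for the 3 eosinophil granule genes and for Cpa3 and Fcer1a. The ratio of the summed eosinophil granule genes to the summed mast cell and basophil genes was 0.394 and 1.12 in the controls and 0.260 and 0.176 in the deleted libraries. Within the eosinophil genes, Epx to Prg3 stayed at 11.0 and 9.78 in the controls and 8.82 and 11.4 in the deleted libraries. Prg2 to Epx was 1.05 and 1.28 in the controls and 2.25 and 1.30 in deleted replicates 1 and 2. Deleted replicate 1 held more Prg2 for its Epx than the other 3 libraries. These ratios are descriptions of 4 libraries and were not tested.

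**Figure D4:**
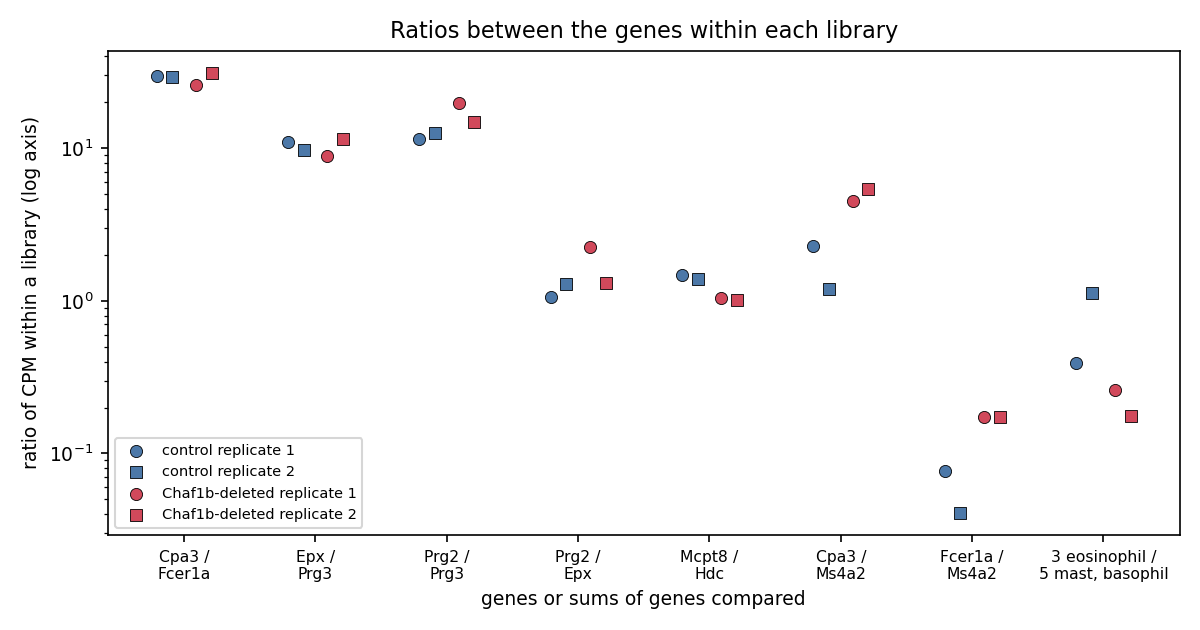
Ratios of CPM between genes within each library (log axis). Cpa3 to Fcer1a stays between 26.0 and 31.1 in the 4 libraries, while Fcer1a to Ms4a2 is 0.173 in both deleted libraries and 0.0764 and 0.0408 in the controls.

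GATA2 and related factors bind short motifs around GATA, and the promoters of the 10 genes were searched for them because the genes share these lineages. The 250 bases before each gene start in the RefSeq promoter table (build GRCm38.p6) were searched on both strands for AGATAA and its variant with a first T, TGATAA, and for the forms ending in G, which are AGATAG and its own variant TGATAG. The table matched 9 of the 10 genes, all but Prg2. At least 1 match was present for 6 of the 9 genes, and 26.5% of the 32851 promoters in the table held one. No match was found in this window for Epx, Mcpt8 or the 2 Gata2 starts. A match describes letters only and was not tested as a site. The windows below read 5′ to 3′ on the strand of the gene, the capitals mark the match (TTATCT and TTATCA are AGATAA and TGATAA on the other strand), and they are shown for all 6 genes with a match.
Prg3, chr2:84988080-84988109, plus strand, match starting 123 bases before the start: tgaaacttttttTTATCAgttctattatcc
Ms4a2, chr19:11623926-11623955, minus strand, 224 bases before: ttctgctctcttTTATCTtctcatttccta
Ms4a2, chr19:11623739-11623768, minus strand, 37 bases before: cagcctggagacTTATCTgacaagtaggtt
Ms4a2, chr19:11623720-11623742, minus strand, 11 bases before: ggttccgcatgaAGATAAtcatt
Cpa3, chr3:20242210-20242239, minus strand, 46 bases before: agctgttcgtcgAGATAAaagctgaggtat
Fcer1a, chr1:173227304-173227333, minus strand, 92 bases before: acaaccctattaTTATCTctggagaaagcc
Il5ra, chr6:106749094-106749123, minus strand, 74 bases before: ggttggtagggcAGATAAatacctttttct
Hdc, chr2:126618882-126618911, minus strand, 221 bases before: caggggcagggaTGATAGagggctctttta

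Ms4a2 was the only gene with 3 matches, all to AGATAA, and Prg3, Cpa3, Fcer1a, Il5ra and Hdc had 1 each. Of these 6, both deleted libraries lay below both controls for Prg3, Ms4a2 and Il5ra, above them for Hdc, and overlapped them for Cpa3 and Fcer1a. Over all genes tested the shares were 22.9% below and 21.4% above, and Il5ra passed the filter through the controls. Of the genes without a match, Epx also lay below both controls, and Mcpt8 and Gata2 overlapped them. A relation between matches and levels was not tested.

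Other genes of these lineages were examined by list. Of 14 further mast cell effector genes, 7 were tested and 0 were called, with 2 higher at an unadjusted p under 0.05 (9.15% of all genes tested) and a median log2 fold change of 0.92. Tpsb2, counted among these 2, and Tpsg1 had 2 and 5 counts in control replicate 2. Both genes passed the filter only with the deleted libraries, where their means were higher. Their differences, this count and this median are thus descriptions only. Of the 7, 4 were positive and 3 negative, which were Srgn (-0.32), Ndst2 (-0.19) and Slc18a2 (-0.07). For Srgn both deleted libraries lay below both controls (22.9% of all genes tested). The list, mostly Srgn, summed to 1081 and 1070 CPM in the controls and 936 and 846 after deletion. Of the 14, 7 were under 10 counts in every library, among them genes of mature mast cells. The tryptase gene Tpsab1 had at most 4 counts, the chymase Mcpt4 at most 5 and the receptor Mrgprb2 at most 2 in any library. Tpsb2, another tryptase, had 12 and 2 counts in control replicates 1 and 2 and 26 and 84 in deleted replicates 1 and 2 (log2 fold change 3.18, adjusted p = 0.224). Tph1, which makes serotonin, had 13.1 and 2.24 CPM in the controls and 17.6 and 41.2 after deletion (log2 fold change 1.92, adjusted p = 0.333), and Tpsg1 had a log2 fold change of 1.09. Cma1, a mast cell chymase, was present, with 337 and 42 counts in control replicates 1 and 2 and 227 and 405 in deleted replicates 1 and 2 (log2 fold change 0.92, adjusted p = 0.724). For Tpsb2, Tpsg1, Tph1 and Cma1 control replicate 2 was the lowest library, as for Cpa3 and Fcer1a. This did not hold for Srgn, Ndst2 and Slc18a2, the rest of the tested list, and Srgn was highest in control replicate 2.

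Of 4 further basophil genes, 4 were tested and 0 called, with a median log2 fold change of 0.24. Prss34, a basophil protease, had 77.8 and 70.3 CPM in the controls and 98.1 and 56.6 after deletion, which enclosed the controls as Mcpt8 did. The cytokine genes Il13 and Il4 had log2 fold changes of 0.52 and 0.36 (adjusted p = 0.764 and 0.816). They were the 2 of the 4 genes for which both deleted libraries lay above both controls (21.4% of all genes tested).

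Of 10 further eosinophil genes, 9 were matched, 8 tested and 0 called, also at an unadjusted p under 0.05 in either direction, and the deleted libraries overlapped the controls for all 8. Their median log2 fold change was -0.43. It includes Ccr3 and Emr4, which passed the filter only with the deleted libraries, where their means were higher, so it is a description only. Ear1, an eosinophil ribonuclease, had 239 and 1275 counts in control replicates 1 and 2 and 424 and 132 in deleted replicates 1 and 2 (log2 fold change -1.19, adjusted p = 0.562). Control replicate 2 was the highest library for Ear1, Ear2, Ear6, Ear11 and Alox15, as for Prg2, Prg3 and Epx. It was not the highest for Ccr3, Emr4 and Siglec5. Of the 31-base stretches, 79.3% of Ear1, 63.9% of Ear2 and 22.8% of Ear6 occur elsewhere, so the counts of these genes are uncertain. Ear11 had a log2 fold change of -1.08. Ccr3, the eotaxin receptor, had 0.264 and 1.61 CPM in the controls and 4.46 and 0.650 after deletion (log2 fold change 1.54, adjusted p = 0.611).

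Genes that act with the 10 showed small differences. Of 18 Fc epsilon RI signalling genes, 0 were called and 0 passed an unadjusted p of 0.05, with a median log2 fold change of 0.06. Fcer1g, the gamma chain of the receptor, had 199 and 197 CPM in the controls and 295 and 241 after deletion (log2 fold change 0.47, adjusted p = 0.486). Both deleted libraries lay above both controls for Fcer1g and below them for Ms4a2, and overlapped them for Fcer1a. Over all genes tested, 21.4% lay above and 22.9% below, and none of the 3 chains passed the adjusted test. The kinases Lyn and Syk had log2 fold changes of 0.41 and 0.37.

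Of 9 genes of lipid mediator synthesis, 0 were called, 3 had an unadjusted p under 0.05 in the higher direction and 1 in the lower (9.15% and 3.1% of all genes tested), and the median log2 fold change was 0.50. Ptgs2, the inducible cyclooxygenase, had a log2 fold change of 1.81 (adjusted p = 0.214), the leukotriene synthase Ltc4s of 1.02 and Ptges of 0.81. Of 9 cytokine receptors, 0 were called and 3 were higher at an unadjusted p under 0.05, against the same 9.15%, with a median of 0.47. Il3ra, the IL-3 receptor alpha chain, had a mean of 11.7 ± 1.84 CPM in the controls and 23.0 ± 5.84 after deletion (SD, n = 2) (log2 fold change 1.02, adjusted p = 0.242), and Csf2rb2 and Crlf2 had log2 fold changes of 1.09 and 1.05. Kit, the SCF receptor used to enrich the cells, had 109 and 124 CPM in the controls and 95.6 and 124 after deletion. Of 18 transcription factors, 0 were called and 3 were higher at an unadjusted p under 0.05, again against 9.15%, with a median of 0.19. Bhlhe41 had a log2 fold change of 1.52, Gata3 of 0.99 and Id1 of 0.96, each with an adjusted p above 0.05. Gata3 had 5 counts in control replicate 2 and passed the filter only with the deleted libraries, where it was higher. Its difference is a description only.

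**Figure D5:**
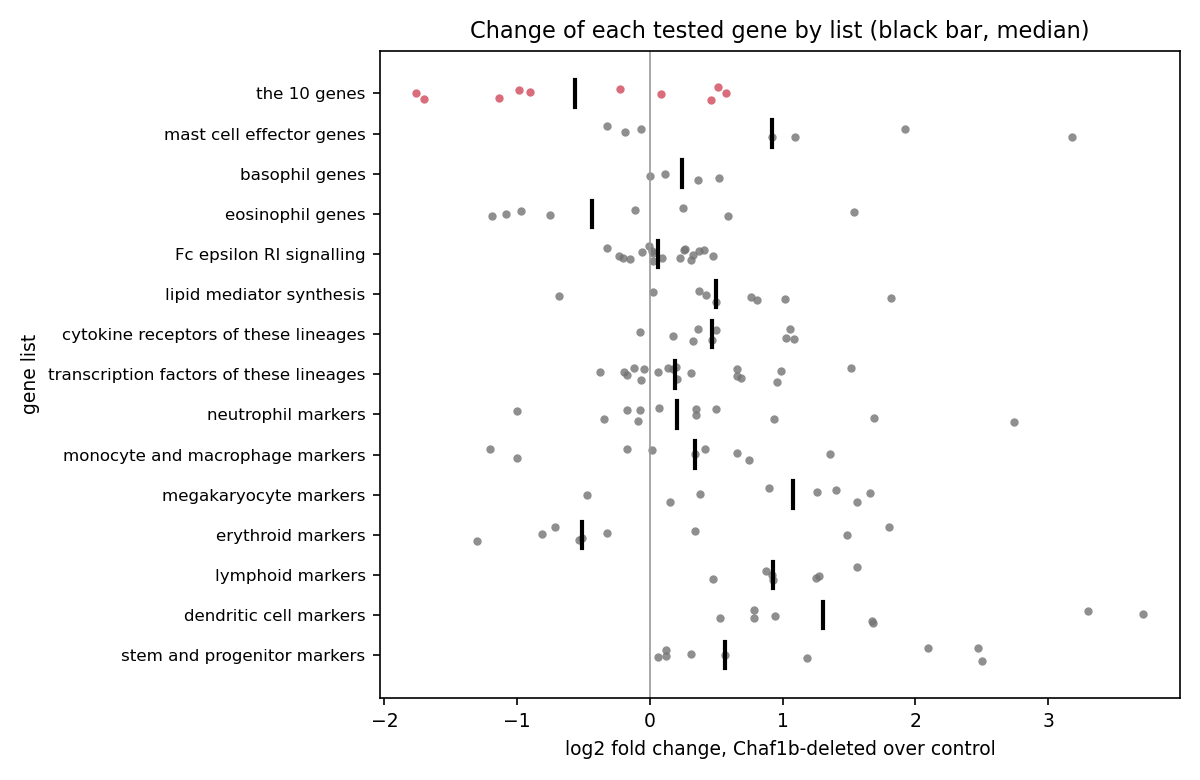
Log2 fold change of each tested gene by list, with the median of a list as a black bar. The 10 genes (red) have a median of -0.56, the further eosinophil genes of -0.43, and the mast cell effector genes of 0.92. Each of these medians includes genes that passed the filter only through the group where they were higher.

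Markers of other cell types in the culture were followed beside these results. Of the lists followed, the 12 neutrophil genes had the highest sum, which came to 54602 and 62183 CPM in the controls and 76039 and 56560 after deletion, with a median log2 fold change of 0.21 and 0 of 12 called. The 9 monocyte and macrophage markers summed to 2864 and 4962 CPM in control replicates 1 and 2 and to 5645 and 3792 in deleted replicates 1 and 2, with a median of 0.34 and 0 called. The 8 dendritic cell markers summed to 159 and 836 CPM in the controls and 1122 and 463 after deletion (median 1.31, with Fscn1 called higher). Control replicate 1 was the lowest library in both lists, while it was the highest for Ms4a2 and Gata2. The megakaryocyte list summed to 112 and 108 against 159 and 279 CPM (median 1.08, 0 of 8 tested called) and the erythroid list to 112 and 67.7 against 45.8 and 70.0 CPM (median -0.51, 0 of 9 called). The stem and progenitor list summed to 196 and 194 against 285 and 298 CPM (median 0.57, Flt3 called higher) and the lymphoid list to 11.5 and 17.8 against 32.1 and 29.997 CPM (median 0.93, 0 of 7 tested called), where Cd3e had at most 4 counts. The dendritic cell and erythroid medians include Siglech and Slc4a1, which passed the filter only with the deleted libraries, where they were higher. The part of any of these cell types in the values of the 10 genes was not tested.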

How the data were processed

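Total RNA of HSPCs, in 2 control and 2 Chaf1b-deleted libraries, was sequenced by the authors from ribo-depleted stranded libraries. The authors aligned reads to mm9 with STAR and made raw counts per gene with HTSeq, and the deposited counts were used here without change, 1 library per file. Annotation release and strand setting of the counting are not given in the sources used here. The 5 rows that name no gene were left out of totals. Between 35.8% and 48.3% of the reads that were counted, ambiguous or outside genes fell outside genes and 2.05% to 2.76% were ambiguous. Names were matched for 33068 of 43629 identifiers through a reference table of gene names, and positions and exon lengths came from GENCODE vM1 (NCBIM37, the same assembly as mm9). Spi1 and Syk were matched through RefSeq synonyms. Ear3 had no match.

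Groups were compared with edgeR 4.0.16 in R 4.3.3 (filterByExpr with a minimum count of 10, TMM, glmQLFit in its legacy form, glmQLFTest, no covariate), with Benjamini-Hochberg adjustment over 16500 genes, at 1.5-fold and adjusted p under 0.05. CPM are counts per 1000000 on genes, without TMM. A count of 0 allows up to 3 counts (0.118 to 0.162 CPM), for counting error only. Alternatives were DESeq2 1.42.0, edgeR's exact test, other scalings and filters, a replicate block and each library left out. The fits were run on simulated counts with changes planted in 200 genes and a common dispersion for all genes. Such counts lack the gene-by-gene spread and the outlying library of these data, so they do not test the calls made here. The genes, lists and tests were chosen with earlier results of these data known. Named genes were the 10 members, Chaf1b, and of each lineage list those called, the 3 with the largest absolute change and defining markers near 0. Kit was added after its values were seen. Cma1, Srgn, Ndst2, Slc18a2, Ear2, Ear6, Alox15, Siglec5, Emr4, Siglech and Slc4a1 also stand outside this rule. Marker lists of other cell types are given by sums and counts. Libraries with the same number were not treated as pairs.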

Additional observations from a re-analysis of the deposited data

How the results depend on the processing

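The number of genes called over the whole table, 61 higher and 1 lower, depended on the settings. It was 27 higher with DESeq2's size factors and 30 with library size only, each with 1 lower. It was 808 and 79 without a low-count filter, 3 and 0 with at least 10 counts in every library, 518 and 35 with edgeR's exact test, and 472 and 34 with DESeq2. With the replicate number as a replicate block, it was 14 higher and 0 lower. Replicate numbers were shared by label only: over genes, the difference of replicate 1 and 2 in controls and in deleted libraries had a correlation of 0.00083, and with 2 pairs no pairing was assumed. With a library left out in turn, 125 to 331 genes were higher and 6 to 42 lower. Such a fit assumes that the lone library varies like the other group.

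Among the 10 genes, none was called higher under any setting. The number called lower, 0 in the main comparison and 0 with the block, was 4 without a filter, 3 with the exact test, 3 with DESeq2, and 0 to 3 with a library left out. The counts at an unadjusted p were recomputed after seeing the data. The 4 lower genes became 3 with the block and 3 to 4 with a library left out. The 0 higher genes became 1 with library size only, without a filter, with DESeq2 and with the block, and 0 to 2 with a library left out. The median log2 fold change was -0.21 when Il5ra was dropped by the minimum of 10 counts in every library, and -0.57 to -0.33 with a library left out. On CPM, 3 genes in place of 1 lay above both controls once deleted replicate 1 was left out, and 6 in place of 5 below. Above, these were Hdc, Cpa3 and Fcer1a. This setting was chosen after seeing the data. A lone deleted library falls outside the controls more readily than a pair does. The share over all genes at this setting is not given here, so the rise is not read as a result. Signs changed only with a library left out, where the log2 fold change ranged from -0.49 to 0.095 for Gata2, -0.014 to 1.33 for Fcer1a, -0.071 to 1.29 for Cpa3 and -0.30 to 0.41 for Mcpt8. The causes were not tested. Il5ra had 6 to 16 counts per library, and the counting intervals of its groups overlapped.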
